A study of Mus musculus with 7 samples.

Results

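Pericytes were followed through 10 genes, measured in single nuclei from brains of 5xFAD +/- mice that carried either an ANGPT2 AAV or a control AAV. The 10 genes were the rows with the symbols Pdgfb, Pdgfrb, Notch3, Rgs5, Kcnj8, Abcc9, Vtn, Anpep, Atp13a5 and Cald1, out of 32285 genes in the matrices. All mice, controls included, carried the 5xFAD transgenes, which a neuronal Thy1 promoter drives and which lead to amyloid plaques. An AAV (adeno-associated virus vector) was injected behind the eye at 4 months of age, and tissue was taken 2 months later, at 6 months. The ANGPT2 AAV group held 4 mice, a male and a female in each of 2 batches. The control AAV group held 3 mice, a male and a female in batch 1 and a male in batch 2. Each library was 1 mouse, and its tissue was labelled as subcortex, thalamus and hippocampus. The labels do not give the promoter or serotype of either vector, or the cells that it reaches.

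Pericytes are the cells of the capillary wall that share a basement membrane with the endothelium. During vessel growth the endothelium releases PDGF-B, the protein of Pdgfb, and pericytes that carry the receptor PDGFR-beta, the protein of Pdgfrb, are drawn to the vessel and kept there. Angiopoietin-2, the protein of Angpt2, is a ligand of the endothelial receptor TIE2, and vessels with an excess of it are known for looser pericyte cover. Of the other genes, Notch3 encodes a Notch receptor of mural cells, and Rgs5 encodes a regulator that shortens signalling through G proteins. Kcnj8 and Abcc9 encode the pore and the regulatory subunit of a vascular ATP-sensitive potassium channel. Vtn encodes vitronectin, a secreted adhesion protein, Anpep the surface peptidase CD13, Atp13a5 a P-type transport ATPase and Cald1 the actin-binding protein caldesmon.

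The 7 libraries held 58286 barcodes, with 25466033 to 100529717 UMIs per library. Median UMIs per barcode were 3678 to 8278 in batch 1 and 2262 to 3407 in batch 2. A UMI is a tag that marks 1 captured RNA molecule. Of all barcode sequences, 1941 of 56305 occurred in more than 1 library. After filters and the removal of 3939 called doublets, 54230 nuclei were kept and were grouped by clustering, with the 10 genes left out of the genes used to cluster. Clusters were named from marker lists that do not hold the 10 genes, which gave 13 classes (mural-like, endothelial-like and so on, written below without "-like"). Another 12189 nuclei stayed unnamed and enter only the sums over whole libraries, in which 3.61% (Atp13a5) to 13.6% (Pdgfb) of a gene's UMIs lay outside the named classes. Angpt2 itself, counted as the mouse gene, had 4.78, 3.70, 2.28 and 2.81 CPM (UMIs of a gene per 1000000 UMIs of the sum) in whole ANGPT2 libraries, against 3.80, 4.27 and 4.00 CPM in control libraries. Its change was -0.17 on the log2 scale (SE 0.24) with an adjusted p of 0.998 in edgeR, and vector RNA whose sequence the reference lacks is not in these sums.

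The mural class, which should hold pericytes and vascular smooth muscle cells, had 320 nuclei and 449088 UMIs. These were 58, 98, 34 and 21 nuclei in ANGPT2 mice (in the order batch 1 male, batch 1 female, batch 2 male, batch 2 female), and 50, 33 and 26 in control mice (batch 1 male, batch 1 female, batch 2 male). The same order of mice is kept for all values below. Of the 18 mural markers, 12 were detected in at least 10% of this cluster's nuclei, and Atp13a5, Abcc9, Vtn, Pdgfrb and Notch3 were among its 10 leading genes although they had no part in the clustering. Summed mural markers stood at 3427 to 5884 CPM in ANGPT2 mice and at 4908 to 6254 CPM in control mice. Summed endothelial markers in the same nuclei were at 214 to 404 CPM in ANGPT2 mice and at 315 to 602 CPM in control mice, with 1 of the 13 markers at 0 UMIs. Oligodendrocyte markers, which these nuclei should lack, summed to 1471 to 3712 CPM in ANGPT2 mice and 1510 to 2813 CPM in control mice, and their part in the mural values was not tested.

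The classes were made from the same nuclei in which the 10 genes were measured, so levels by class are a description. Values are means over libraries of CPM in summed nuclei. Nuclear UMIs also come from introns, so that long genes collect more of them, and levels are compared between classes for 1 gene and not between genes.

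**Figure D1:**
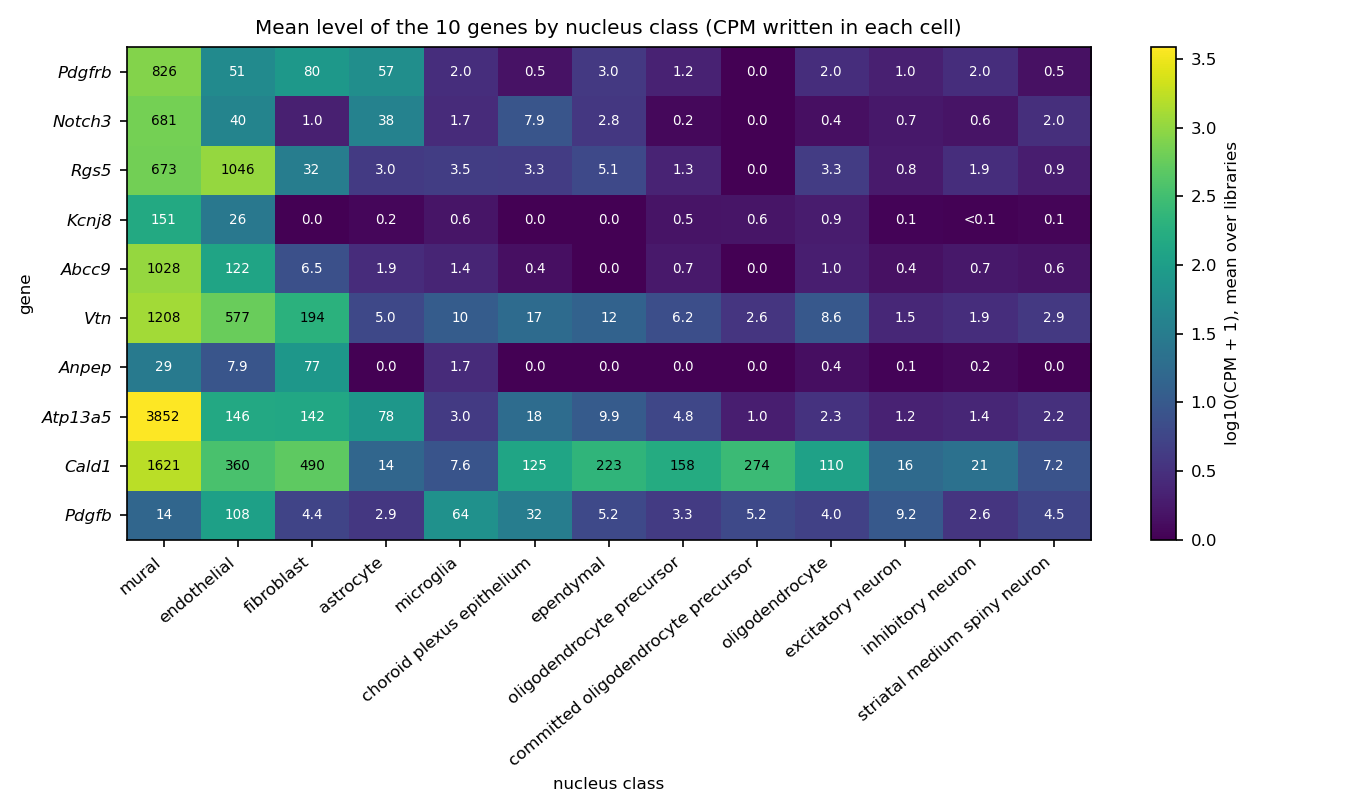
Heat map of the 10 genes (rows) in 13 nucleus classes (columns), coloured by log10(CPM + 1) and with the mean CPM over libraries written in each cell. Mural nuclei hold the highest mean of 7 genes, endothelial nuclei that of Rgs5 and Pdgfb, and fibroblasts that of Anpep, but for Rgs5 the 442 endothelial nuclei without mural marker UMIs stood at 470 CPM, under the pooled mural 661 CPM.

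Pdgfb, the ligand gene (chr15:79995874-80014977, minus strand, GRCm38), was highest in endothelial nuclei, at 108 ± 22.5 CPM (SD, n = 7 libraries). Microglia followed at 64.2 ± 10.7 CPM (SD, n = 7), and every endothelial library (lowest 83.7 CPM) lay above every microglial one (highest 77.5 CPM). Choroid plexus epithelium had 32.0 ± 29.4 CPM (SD, n = 6), a spread that overlapped that of microglia, and mural nuclei had 14.1 ± 23.1 CPM (SD, n = 7) from 5 UMIs in all. Most Pdgfb UMIs were nevertheless neuronal. Excitatory neurons, the largest class with 16802 nuclei, held 63.8% of them at 9.16 ± 2.56 CPM (SD, n = 7). Microglia held 9.41% and endothelial nuclei 3.07%. A Pdgfb UMI was seen in 10.1% of excitatory nuclei and 14.3% of endothelial nuclei, whose median depths were 10928 and 1304 UMIs. With each nucleus thinned to 800 UMIs, these shares were 0.631% of 16790 excitatory nuclei and 7.56% of 410 endothelial nuclei, beside 0.363% of 9101 oligodendrocytes (0.869% before thinning).

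Among the other ligands of the family, Pdgfd, whose protein also binds PDGFR-beta, stood at 586 ± 150 CPM in endothelial nuclei, 484 ± 223 CPM in fibroblasts and 12.8 ± 16.4 CPM in mural nuclei (SD, n = 7 each). Pdgfa and Pdgfc, ligands of PDGFR-alpha, had 47.4 ± 36.2 and 11.8 ± 10.4 CPM in endothelial nuclei (SD, n = 7). The receptor gene Pdgfra, a marker of oligodendrocyte precursors, was at 696 ± 64.4 CPM in that class and at 10.3 ± 10.3 CPM in mural nuclei (SD, n = 7 each).

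Pdgfrb, the receptor, reached 826 ± 220 CPM in mural nuclei (SD, n = 7), 10.4 times the mean of the next class. Fibroblasts (79.6 ± 38.1 CPM), astrocytes (57.3 ± 14.5 CPM) and endothelial nuclei (51.2 ± 27.5 CPM, SD, n = 7 each) came next, and neighbours in that order overlapped. All other classes were at or below 2.95 CPM. A Pdgfrb UMI was found in 63.4% of mural nuclei (exact 95% interval 57.9% to 68.7%, which covers counting error only) and in 0.363% of oligodendrocytes, with median depths of 1422 and 1943.5 UMIs. After thinning, the shares were 46.3% of 246 mural and 0.231% of 9101 oligodendrocyte nuclei.

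Astrocytes, with 2981 nuclei, held 34.6% of all Pdgfrb UMIs, and mural nuclei held 27.5%. The astrocyte level was 6.93% of the mural level for Pdgfrb, 5.58% for Notch3 and 2.03% for Atp13a5. It was 0.180% for Abcc9, 0.412% for Vtn and 0.115% for Kcnj8. Summed mural markers in astrocytes were at 19.0 to 29.2 CPM in ANGPT2 mice and at 27.9 to 32.6 CPM in control mice. These 6 genes thus did not keep the ratios to each other that they had in mural nuclei. Anpep had 0 UMIs in astrocytes, which allows up to 0.101% of nuclei with a UMI and sets no limit on nuclei that express it, since a UMI was seen in only 4.38% of mural nuclei. Pdgfrb was seen in all 7 astrocyte libraries, at 46.2, 55.6, 76.6 and 52.5 CPM in ANGPT2 mice and at 47.6, 43.6 and 78.8 CPM in control mice.

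Notch3 (chr17:32120820-32166852, minus strand), which in the vessel wall receives signals from Jagged ligands, stood at 681 ± 149 CPM in mural nuclei (SD, n = 7). Endothelial nuclei (40.5 ± 21.8 CPM) and astrocytes (38.0 ± 7.81 CPM, SD, n = 7 each) overlapped, and fibroblasts had 2 UMIs in all. A UMI of Notch3 was found in 55.3% of mural nuclei and 0.115% of oligodendrocytes (43.5% and 0.0330% after thinning). Notch3 and Pdgfrb differed in the astrocyte clusters that carried them. The larger astrocyte cluster (2060 nuclei) had a mean of 68.4 CPM of Pdgfrb (lowest 55.6, highest 92.3) and 24.7 ± 9.04 CPM of Notch3. The smaller one (921 nuclei), led by Etnppl and Slc6a11, had 26.9 ± 7.03 CPM of Pdgfrb and 66.4 ± 10.9 CPM of Notch3 (SD, n = 7 each). Over the libraries the ranges of the 2 clusters lay apart for Pdgfrb (highest 35.9 CPM in the smaller cluster) and for Notch3 (highest 37.3 CPM in the larger, lowest 51.3 CPM in the smaller). Atp13a5 did not split this way, with 72.3 ± 12.5 CPM in the larger and 96.5 ± 27.0 CPM in the smaller cluster. Of the other Notch genes, Notch1 was at 122 ± 71.3 CPM in mural and 172 ± 51.7 CPM in endothelial nuclei, and the endothelial ligand gene Dll4 had 63.7 ± 68.9 CPM in endothelial and 0 in mural nuclei (SD, n = 7).

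Rgs5 (chr1:169655501-169695813, plus strand), though widely used as a pericyte marker, had its highest mean in endothelial nuclei. It had 1046 ± 424 CPM in endothelial nuclei and 673 ± 279 CPM in mural nuclei (SD, n = 7 each), and the ranges overlapped. That order rested on the 50 of 519 endothelial nuclei with at least 2 UMIs of mural markers, which held 63.4% of the endothelial Rgs5 UMIs. In the 442 endothelial nuclei with no mural marker UMI Rgs5 was at 470 CPM, below the 661 CPM of pooled mural nuclei. A UMI of Rgs5 was found in 25.0% of endothelial nuclei and in 50.0% of mural nuclei, beside 0.602% of oligodendrocytes (23.9%, 36.2% and 0.275% after thinning). The endothelial UMIs were concentrated, with 28.6% of 1007 UMIs in 10 nuclei and up to 50 in 1 nucleus. Fibroblasts followed at 32.2 ± 55.4 CPM (SD, n = 7), from 11 UMIs.

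Kcnj8 and Abcc9, the channel pair, are neighbours on chromosome 6, with 16247 bases between them. In the GENCODE annotation of GRCm38, Kcnj8 lies at chr6:142564837-142571614 and Abcc9 at chr6:142587862-142702315, both on the minus strand. Kcnj8 had 151 ± 88.8 CPM in mural nuclei (SD, n = 7) and 6.97 to 49.1 CPM in endothelial nuclei, and all other classes were at or below 0.886 CPM. Abcc9 had 1028 ± 273 CPM in mural nuclei and 122 ± 59.6 CPM in endothelial nuclei (SD, n = 7 each), and fibroblasts had 6.46 ± 8.33 CPM. The lowest mural library for Abcc9 (755 CPM) lay above the highest endothelial one (233 CPM). Kcnj8 was detected in 17.8% of mural nuclei and 0.191% of oligodendrocytes (11.8% and 0.0879% after thinning), and Abcc9 in 63.8% and 0.181% (50.0% and 0.0220% after thinning). Of all Kcnj8 UMIs in the libraries 46.9% were mural, and of all Abcc9 UMIs 60.1%, the highest share of the 10 genes. Their relatives of the pancreatic channel, Kcnj11 and Abcc8, stood in mural nuclei at 6.00 ± 7.78 and 3.34 ± 5.70 CPM (SD, n = 7).

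Vtn was highest in mural nuclei (1208 ± 329 CPM), with endothelial nuclei at 577 ± 244 CPM and fibroblasts at 194 ± 108 CPM (SD, n = 7 each), and each neighbouring pair overlapped. It was detected in 64.7% of mural nuclei and in 1.52% of oligodendrocytes (50.4% and 0.637% after thinning). The start regions of Kcnj8, Abcc9 and Vtn are shown because they are the 3 of 8 members with a promoter in the RefSeq table that hold the core motif TGGGAA of RBPJ, the DNA-binding protein of the Notch pathway. The windows run from 250 bases before to 50 bases after the start (RefSeq, GRCm38.p6) and are written 5′ to 3′ on the gene's strand. They are chr6:142571565-142571864 (minus strand) for Kcnj8, chr6:142702225-142702524 (minus strand) for Abcc9 and chr11:78498870-78499169 (plus strand) for Vtn. Capitals mark the motif on either strand (TGGGAA or TTCCCA).
Kcnj8: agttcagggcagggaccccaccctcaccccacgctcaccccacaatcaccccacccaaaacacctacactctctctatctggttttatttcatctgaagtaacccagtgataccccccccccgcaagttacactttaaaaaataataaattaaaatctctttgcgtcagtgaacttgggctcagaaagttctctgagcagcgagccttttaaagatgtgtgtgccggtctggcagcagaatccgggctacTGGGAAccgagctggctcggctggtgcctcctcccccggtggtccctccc
Abcc9: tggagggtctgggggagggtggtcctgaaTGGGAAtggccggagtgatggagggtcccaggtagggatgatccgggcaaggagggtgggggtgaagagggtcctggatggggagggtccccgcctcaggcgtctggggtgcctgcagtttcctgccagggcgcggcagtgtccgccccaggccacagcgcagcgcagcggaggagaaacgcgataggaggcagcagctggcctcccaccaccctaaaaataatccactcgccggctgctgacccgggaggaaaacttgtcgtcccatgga
Vtn: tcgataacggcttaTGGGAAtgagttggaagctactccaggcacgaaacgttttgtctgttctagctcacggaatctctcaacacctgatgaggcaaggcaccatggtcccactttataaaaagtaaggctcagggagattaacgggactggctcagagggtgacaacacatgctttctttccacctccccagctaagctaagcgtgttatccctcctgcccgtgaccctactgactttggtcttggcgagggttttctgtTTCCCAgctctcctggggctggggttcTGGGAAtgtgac
The motif stood once in each of the first 2 windows and 3 times in that of Vtn. It was also present in 25.6% of the 32851 windows of this length, and its presence in 3 of 8 members is a description only. The EBF core CCCNNGGG was found in 1 of 8 members (Notch3) and 13.7% of all windows, and the forkhead motif TGTTTAC in 1 of 8 (Cald1) and 3.65% of all. A serum response factor (CArG) box was in 0 of 8 members and 1.63% of all windows. These matches are letters only, and no binding was measured.

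Anpep (chr7:79821803-79861059, minus strand) was low throughout and was highest in fibroblasts, at 77.2 ± 33.8 CPM (SD, n = 7). Mural nuclei had 28.7 ± 29.2 CPM (SD, n = 7), from 15 UMIs in 14 of 320 nuclei, and the 2 ranges overlapped. Atp13a5 (chr16:29231851-29378732, minus strand) showed the widest gap between mural nuclei and the class that followed. It had 3852 ± 769 CPM in mural nuclei and 146 ± 117 CPM in endothelial nuclei (SD, n = 7 each), a ratio of 26.3, while fibroblasts had 142 ± 117 CPM and astrocytes 78.4 ± 10.1 CPM. Few nuclei carried the fibroblast value, with 70.4% of 108 UMIs in 10 nuclei. Summed mural markers in fibroblasts were at 1954 to 2926 CPM in ANGPT2 mice and at 595 to 3606 CPM in control mice, and their part in that value was not tested. A UMI of Atp13a5 was present in 91.9% of mural nuclei and in 0.420% of oligodendrocytes, or 85.0% and 0.176% after thinning. The gene next to it on chromosome 16, Atp13a4, is 17120 bases away and had the reverse pattern, with 363 ± 59.1 CPM in astrocytes and 9.17 ± 15.0 CPM in mural nuclei (SD, n = 7 each).

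Cald1 (chr6:34598500-34775473, plus strand) was the most widely spread of the genes. Mural nuclei had 1621 ± 209 CPM, above every other class without overlap, and fibroblasts had 490 ± 83.3 CPM (SD, n = 7 each). Endothelial nuclei (360 ± 124 CPM), committed oligodendrocyte precursors (274 ± 59.2 CPM) and ependymal nuclei (223 ± 52.3 CPM, SD, n = 7 each) followed with overlap. Mural nuclei therefore held 7.10% of all Cald1 UMIs, and oligodendrocytes, at 110 ± 19.6 CPM, held 20.8%. A UMI of Cald1 was found in 76.6% of mural nuclei and 16.6% of oligodendrocytes (64.6% and 8.46% after thinning). Among excitatory neurons the dentate granule-like cluster of 1600 nuclei carried 134 ± 20.7 CPM (SD, n = 6), while the class as a whole had 16.4 CPM. A second granule-like cluster (687 nuclei, led by Gm6999 and Bdnf), in which only the batch 1 control female had 10 or more nuclei, carried 97.5 CPM, with a UMI in 52.4% of nuclei against 56.3% in the first.

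Of 12748 genes with at least 20 CPM in their highest class, the ones most like Pdgfrb over the 13 class means were Osmr, Atp13a5, Gm39090, Sh3d21 and Slc30a10. Their Pearson correlations on log2(CPM + 1) ran from 0.92 to 0.96. Osmr, the oncostatin M receptor gene, reached 172 CPM in mural nuclei. Among the members Abcc9 ranked 29th, Rgs5 68th, Vtn 71st, Notch3 91st, Anpep 139th, Kcnj8 429th, Cald1 2356th and Pdgfb 6432nd. Most like Pdgfb were Zfand2a, Polr2e, Cmtm8, Akirin1 and Ccdc12, with correlations of 0.88 to 0.89, and each was highest in endothelial nuclei or microglia. Pdgfb and Pdgfrb themselves correlated at 0.16. The 13 points come from the same 7 libraries, and the classes differ in depth and number of nuclei.

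The endothelial level of the mural genes came from few barcodes. Of 519 endothelial nuclei, 50 had at least 2 UMIs of the 18 mural markers. These 50 held 93.8% of the endothelial UMIs of Pdgfrb, 94.2% of those of Atp13a5, 93.2% of Vtn, 95.7% of Kcnj8, 89.7% of Notch3 and 88.7% of Abcc9. Their median depth was 3683.5 UMIs and their median doublet score 0.70, against 1202.5 UMIs and 0.42 in the 442 endothelial nuclei with no mural marker UMI. In those 442 nuclei Pdgfrb was at 4.70 CPM, Atp13a5 at 9.41 CPM and Vtn at 43.9 CPM, and Kcnj8 had 0 UMIs.

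Rgs5, Cald1 and Pdgfb behaved differently from the rest. In the 442 endothelial nuclei without mural markers Rgs5 remained at 470 CPM, with a UMI in 15.6% of them, Cald1 at 165 CPM and Pdgfb at 92.5 CPM. In the 50 others Rgs5 stood at 2666 CPM and Vtn at 1989 CPM, above the pooled mural values of 661 and 1338 CPM, while Pdgfb was at 125 CPM. The 50 barcodes were 4, 12, 2 and 19 in ANGPT2 mice and 5, 5 and 3 in control mice. They made up 20.9% of the endothelial nuclei of the batch 2 ANGPT2 female and 4.26% to 9.80% of those of the other 6 mice. Whether these barcodes hold 2 nuclei was not tested beyond the doublet score.

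**Figure D2:**
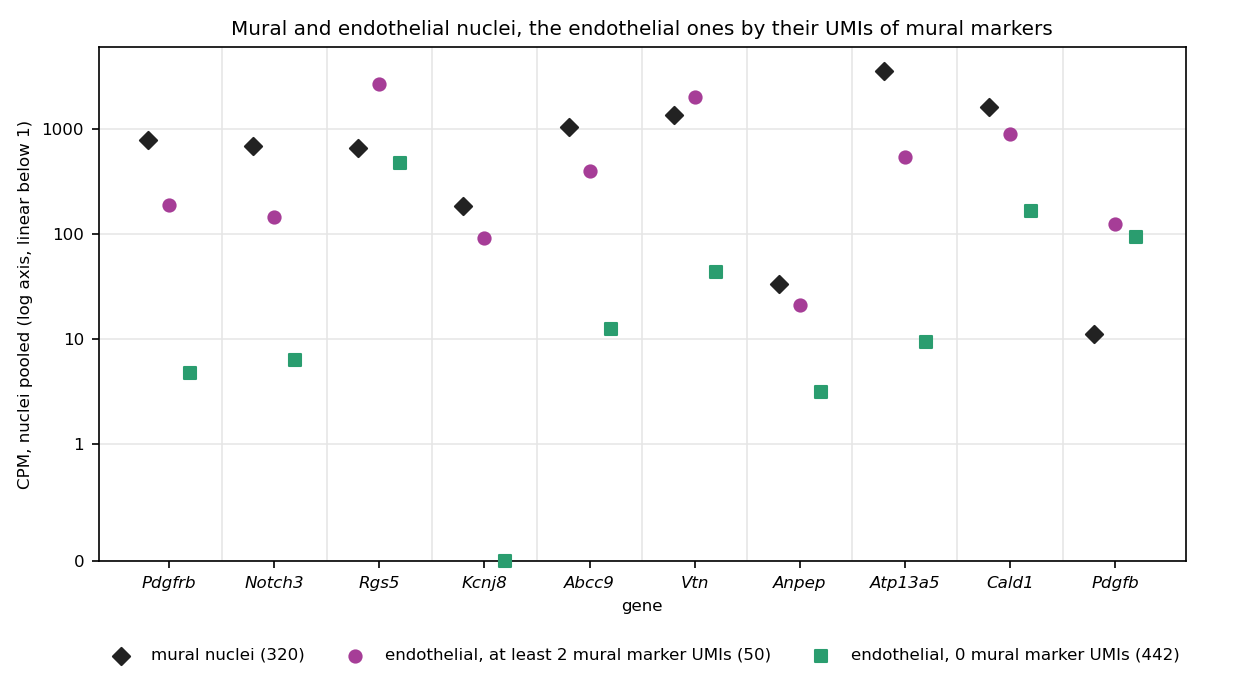
CPM of the 10 genes (log vertical axis, linear below 1) in pooled mural nuclei (diamonds) and in endothelial nuclei with at least 2 (circles) or 0 (squares) UMIs of mural markers. Where no mural marker was seen Pdgfrb is at 4.70 CPM and Kcnj8 at 0, Rgs5 at 470 CPM and Pdgfb at 92.5 CPM.

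Within the mural class the genes occurred together in single nuclei. A median of 5 of the 10 genes had a UMI, and 79.1% of mural nuclei had at least 4. At least 4 were seen in 9.25% of endothelial nuclei, 1.71% of fibroblasts and 0.0671% of astrocytes. The UMIs were spread over many nuclei for Atp13a5, with 9.74% of them in the top 10 nuclei, and less so for Vtn (28.5%, with 73 UMIs in 1 nucleus) and Kcnj8 (37.3%).

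At least 2 UMIs of Acta2, Myh11, Tagln and Lmod1, which encode parts of the contractile apparatus of smooth muscle, were found in 13 of 320 mural nuclei, with the limit chosen after the values were seen. In these 13 nuclei (27782 UMIs) Notch3 stood at 1440 CPM, Cald1 at 1512 CPM and Pdgfrb at 432 CPM. In the 307 others (421306 UMIs) they stood at 641, 1619 and 807 CPM. Abcc9 had 5 UMIs in 3 of the 13 nuclei (180 CPM), against 1092 CPM in the 307 others, and Kcnj8 had 0 UMIs in the 13, against 197 CPM. Atp13a5 was at 1836 CPM in the 13 and at 3655 CPM in the 307. These are single pooled values with no test, and with 13 nuclei a share of 0 has an exact 95% upper limit of 24.7%.

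Clustering the mural nuclei again gave 3 sub-clusters of 134, 101 and 85 nuclei. The second was led by Cemip, Myh11 and Acta2, and it had 931 CPM of Notch3, 867 CPM of Pdgfrb and 1882 CPM of Cald1, against 687, 836 and 1766 CPM in the first. The third was led by Cdh18, Hs3st4 and Trhde, which are not mural markers, and it held 431 CPM of Notch3, 619 CPM of Pdgfrb and 1096 CPM of Cald1. It was uneven over mice, with 17, 30, 1 and 5 nuclei in ANGPT2 mice and 15, 7 and 10 in control mice. The part of this mix in the mural values of each mouse was not tested. Atp13a5 stood at 3981, 3658 and 2795 CPM in the 3 sub-clusters, in that order. Vtn went against this order, with 1676 CPM in the third and 1163 and 1257 CPM in the first and second. The smooth muscle genes Mylk and Myl9 were also seen outside the 13 nuclei above. A UMI of Mylk was found in 29.1%, 39.6% and 17.6% of nuclei and one of Myl9 in 8.21%, 10.9% and 14.1%, with the 3 sub-clusters ordered from the largest to the smallest.

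Whether the ANGPT2 AAV changed how many mural nuclei were recovered was asked first. Mural nuclei made up 0.811%, 1.11%, 0.569% and 0.269% of kept nuclei in ANGPT2 mice, against 0.595%, 0.459% and 0.293% in control mice. The groups overlapped, with a mean of 0.689 ± 0.356% in ANGPT2 mice and 0.449 ± 0.152% in control mice (SD, n = 4 and 3, exact two-sided permutation p = 0.371). The smallest p that 35 splits allow is 0.0286. The difference was 0.43 percentage points in batch 1 and 0.13 in batch 2. These shares also depend on the other nuclei recovered, and striatal medium spiny neurons ran from 0.0953% to 28.7% of kept nuclei. Per endothelial nucleus there were 0.892, 0.671, 0.723 and 0.231 mural nuclei in ANGPT2 mice, against 0.980, 0.485 and 0.510 in control mice. The means were 0.629 ± 0.282 in ANGPT2 mice and 0.658 ± 0.279 in control mice (SD, n = 4 and 3, exact two-sided permutation p = 0.857), and the lowest value was the batch 2 ANGPT2 female.

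In mural nuclei none of the 10 genes differed detectably between the groups. Of the 8 that passed the filter on low counts, 0 passed the threshold of 0.05 on the adjusted p (edgeR quasi-likelihood test, Benjamini-Hochberg), beside 0 of 1171 genes tested (0%). DESeq2 called 0 as well. At an unadjusted p under 0.05 there were 0 of the 8 members and 28 of the 1171 genes (2.39%). The median log2 change of the 8 was 0.12, against 0.01 over all genes tested. No member had groups that lay apart, as 4.78% of the tested genes did (2.31% with ANGPT2 mice higher). Changes ran from -0.28 (Cald1) to 0.37 (Vtn), all with an adjusted p of 0.995. Single mice moved them, and Vtn was at 0.063 without the batch 1 control female, Cald1 at -0.13 and Notch3 at 0.056 without the batch 1 control male, and Atp13a5 at -0.031 without the batch 2 control male.

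Pdgfrb stood in mural nuclei at 769, 646, 1185 and 500 CPM in ANGPT2 mice, against 946, 857 and 881 CPM in control mice. The ANGPT2 mice lay on both sides of the controls, and their log2 change was -0.25 (SE 0.29). Notch3 had 842, 727, 695 and 500 CPM in ANGPT2 mice, against 520, 602 and 881 CPM in control mice, with a log2 change of 0.22 (SE 0.30). The batch 2 control male was the highest of the 7 for Notch3, and the batch 2 ANGPT2 female the lowest.

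Rgs5 had 586, 785, 981 and 357 CPM in ANGPT2 mice, against 532, 401 and 1070 CPM in control mice (log2 change 0.25, SE 0.34). Abcc9 had 952, 992, 1553 and 785 CPM in ANGPT2 mice, against 1194, 966 and 755 CPM in control mice (log2 change 0.04, SE 0.29). For both genes each group spanned most of the range of the other. Kcnj8 rested on 21, 32, 2 and 2 UMIs in ANGPT2 mice and on 13, 13 and 0 in control mice, and its log2 change was 0.20 (SE 0.44).

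Vtn had 1465, 1581, 1267 and 928 CPM in ANGPT2 mice, against 1277, 620 and 1321 CPM in control mice (log2 change 0.37, SE 0.30). The batch 1 control female was the lowest of the 7. Atp13a5 had 3943, 3011, 4740 and 3141 CPM in ANGPT2 mice, against 3841, 3319 and 4971 CPM in control mice (log2 change -0.13, SE 0.26). Cald1 came closest to a separation, with 1660, 1408, 1512 and 1428 CPM in ANGPT2 mice, against 2021, 1623 and 1699 CPM in control mice. Only the batch 1 ANGPT2 male overlapped the controls, and the log2 change was -0.28 (SE 0.26).

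Pdgfb and Anpep did not pass the filter in mural nuclei. Pdgfb had 0, 3, 0 and 0 UMIs there in ANGPT2 mice, against 0, 1 and 1 in control mice. Anpep had 2, 8, 2 and 0 UMIs in ANGPT2 mice, against 1, 2 and 0 in control mice. Within the batches, the mean log2 CPM of ANGPT2 minus control mice was below 0 in both for Pdgfrb (-0.34 and -0.22), Cald1 (-0.24 and -0.25) and Atp13a5 (-0.05 and -0.41), and above 0 in both for Kcnj8. It changed sign between batches for Rgs5 (0.53 and -0.85), Notch3 (0.46 and -0.60), Vtn (0.75 and -0.32) and Abcc9 (-0.14 and 0.49). Batch 2 holds 1 control mouse.

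**Figure D3:**
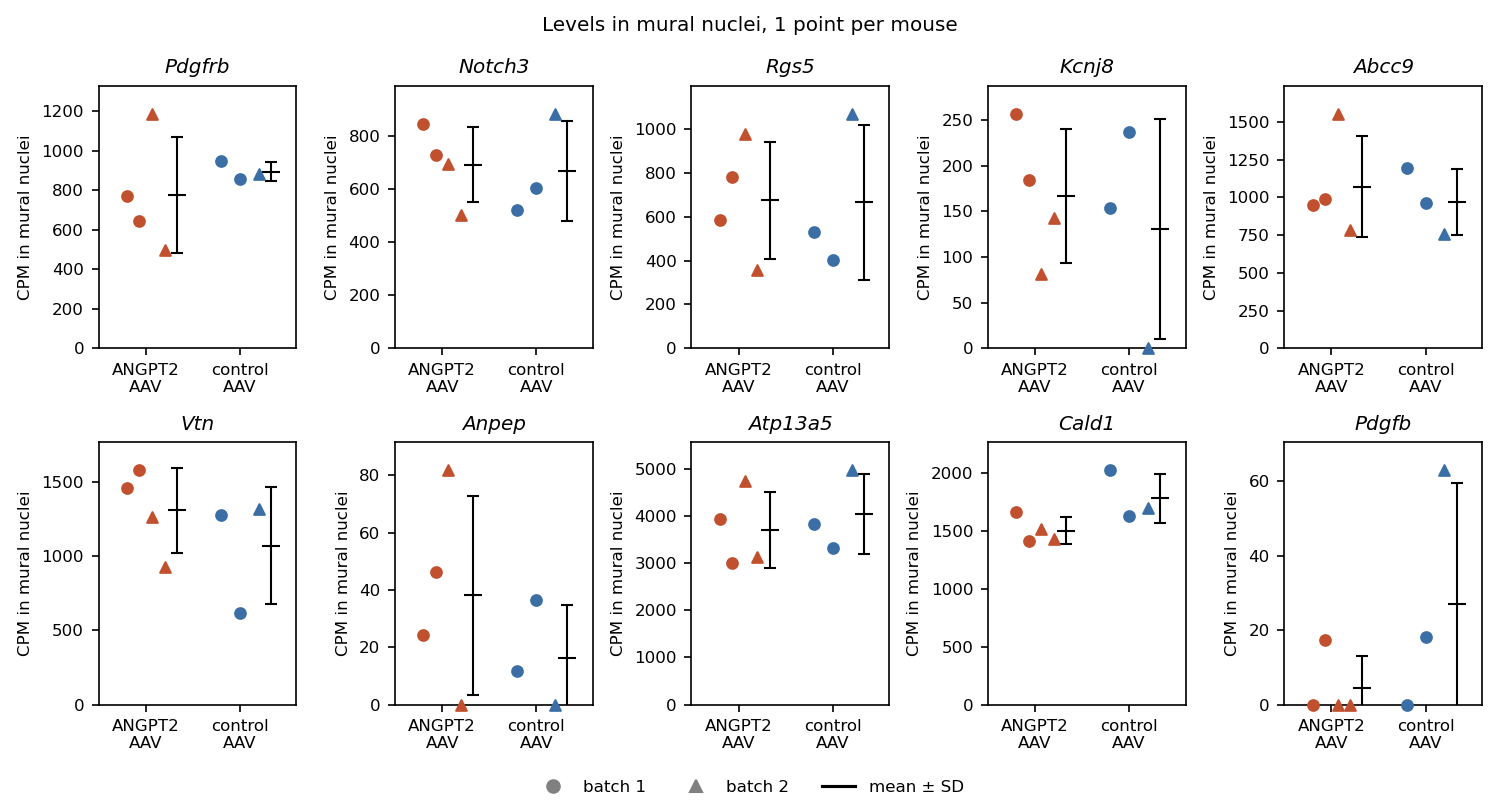
CPM of each of the 10 genes in mural nuclei, 1 point per mouse, ANGPT2 AAV (4 mice) left of control AAV (3 mice), with circles for batch 1, triangles for batch 2 and the mean ± SD beside each group (bars cut at 0). The groups overlap for every gene.

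In endothelial nuclei, the class with the highest Pdgfb mean, Pdgfb had 92.5, 99.1, 98.1 and 123 CPM in ANGPT2 mice, against 112, 83.7 and 150 CPM in control mice, with a log2 change of -0.06. The groups overlapped, and the values came from 7 to 26 UMIs per mouse. Of the 6 members that passed the filter there, 0 passed the threshold (edgeR, adjusted p = 1.00 for each), beside 0 of 3421 genes tested (0%). At an unadjusted p under 0.05 there were 0 of the 6 and 2.34% of all genes tested. DESeq2 called 0. The median log2 change of the 6 members was 0.11, against 0.03 over all genes tested, and 0 of the 6 had groups that lay apart, against 4.24% of all genes tested (1.81% with ANGPT2 mice higher).

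Rgs5 in endothelial nuclei was at 978, 888, 574 and 1921 CPM in ANGPT2 mice, against 805, 1102 and 1052 CPM in control mice (log2 change 0.16, SE 0.36). The batch 2 ANGPT2 female, the mouse with the most endothelial barcodes bearing mural markers, was the highest for Rgs5. It was also the highest for Atp13a5, with 131, 64.8, 56.0 and 393 CPM in ANGPT2 mice, against 74.9, 133 and 172 CPM in control mice. Cald1 there had 270, 377, 392 and 577 CPM in ANGPT2 mice, against 243, 230 and 429 CPM in control mice (log2 change 0.50, SE 0.35). The groups overlapped, with the batch 2 female again the highest. Vtn had a log2 change of -0.36 (SE 0.41). The 4 members that did not pass the filter overlapped too (SD, n = 4 and 3, exact two-sided permutation tests). Pdgfrb averaged 60.8 ± 34.8 CPM in ANGPT2 mice and 38.4 ± 4.13 CPM in control mice (exact p = 0.371), and Notch3 averaged 45.5 ± 28.1 CPM in ANGPT2 mice and 33.8 ± 11.5 CPM in control mice (exact p = 0.543). Kcnj8 averaged 31.4 ± 16.7 CPM in ANGPT2 mice and 18.8 ± 10.8 CPM in control mice (exact p = 0.314), and Anpep had 7 UMIs in all. Without the batch 2 ANGPT2 female the log2 change of Rgs5 was -0.25, that of Atp13a5 -0.49 (0.46 with it) and that of Abcc9 -0.55 (0.05 with it). Within batches 1 and 2, the mean log2 CPM of ANGPT2 minus control mice was below 0 in both for Atp13a5 (-0.08 and -0.12), unlike its fitted change. It was also below 0 in both for Vtn (-0.64 and -0.33) and Pdgfb (-0.01 and -0.40), and above 0 in both for Cald1 (0.42 and 0.15). The sign changed for Abcc9 (-0.50 and 0.11) and Rgs5 (-0.002 and 0.01). With the 50 barcodes left out, 2 members still passed the filter. Rgs5 then had a log2 change of 0.59 (SE 0.51) and Cald1 of 0.86 (SE 0.36), and edgeR gave both an adjusted p of 0.998 (0.0296 unadjusted for Cald1).

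In the other 11 classes 0 genes passed the threshold with edgeR (0% of 2619 to 17738 tested), members included. DESeq2 called 1 gene in striatal neurons, which was not a member, and 0 in the rest. The number of members that passed the filter there ran from 1 to 8. Notch3 in astrocytes was at 39.2, 31.6, 36.5 and 25.1 CPM in ANGPT2 mice, against 44.3, 48.5 and 40.6 CPM in control mice. All ANGPT2 mice lay below all controls, in both batches, with a log2 change of -0.36 (SE 0.20). The adjusted p from edgeR was 0.999 (0.0932 unadjusted). Notch3 also differed between the astrocyte clusters, as given above, and the part of each mouse's mix of clusters was not tested. Groups lay apart for 1 of the 4 members tested in astrocytes, beside 5.3% of all genes tested there (1.45% with ANGPT2 mice higher), and 0 of the 4 had an unadjusted p under 0.05, beside 3.48%. Pdgfrb in astrocytes (values above) overlapped, with a log2 change of 0.08 (SE 0.23). The others tested there were Cald1 (0.24, SE 0.31) and Atp13a5 (-0.05, SE 0.17). In fibroblasts the 4 members tested, Vtn, Anpep, Atp13a5 and Cald1, had log2 changes of 0.64 (SE 0.42), 0.43 (SE 0.57), 0.28 (SE 0.61) and 0.00 (SE 0.29). Rgs5 in excitatory neurons, which averaged 0.835 CPM there, had a log2 change of 0.78 (SE 0.36, edgeR adjusted p = 0.898, 0.0573 unadjusted). Pdgfb in microglia had a log2 change of 0.12 (SE 0.22), and in excitatory neurons of -0.32 (SE 0.23).

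Summed over whole libraries, 4 of the 10 genes had an unadjusted p under 0.05, all higher in ANGPT2 mice, beside 2.8% of 19987 genes tested. None passed after adjustment, and 0 of 19987 genes did (0%, edgeR), while DESeq2 called 2 genes, neither of them a member. The median log2 change of the 10 was 0.53, against -0.02 over all genes tested, and 9 of the 10 were above 0, against 46.3% of all genes. In such sums changes in the number of mural or endothelial nuclei, the make-up of other nuclei and RNA per nucleus cannot be told apart. That make-up differed widely, with striatal medium spiny neurons at 0.0953% to 28.7% of a mouse's kept nuclei and excitatory neurons at 15.5% to 44.8%.

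Rgs5 had 4.12, 8.25, 5.08 and 12.5 CPM in whole ANGPT2 libraries, against 2.25, 3.77 and 3.96 CPM in control libraries. Every ANGPT2 mouse lay above every control, and the log2 change was 1.27 (SE 0.41, edgeR adjusted p = 0.998, 0.0131 unadjusted). The batch 2 ANGPT2 female was the highest, and 85.5% of its Rgs5 UMIs were in endothelial nuclei. Abcc9 was the other gene with groups apart, at 2.00, 4.06, 2.58 and 2.02 CPM in ANGPT2 mice, against 1.81, 1.39 and 1.46 CPM in control mice. Its log2 change was 0.84 (SE 0.27, edgeR adjusted p = 0.998, 0.0118 unadjusted). Groups apart in these 2 of 10 members stand beside 3.95% of all genes tested in either direction and 0.821% with ANGPT2 mice higher. Of the Abcc9 UMIs of the batch 2 ANGPT2 female, 64.4% were in endothelial nuclei and 18.6% in mural nuclei. The 50 endothelial barcodes with mural markers, 19 of them from this mouse, held 88.7% of all endothelial Abcc9 UMIs. The part of these barcodes in the separation of the groups for Abcc9 was not tested.

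Atp13a5 had 9.58, 12.6, 8.61 and 8.09 CPM in ANGPT2 libraries, against 7.48, 5.79 and 8.83 CPM in control libraries (log2 change 0.48, SE 0.16, edgeR adjusted p = 0.998, 0.0148 unadjusted). Notch3 had 3.38, 4.55, 2.63 and 2.54 CPM in ANGPT2 libraries, against 2.30, 1.77 and 2.96 CPM in control libraries (log2 change 0.58, SE 0.24, edgeR adjusted p = 0.998, 0.0357 unadjusted). For both genes the batch 2 control male lay within the ANGPT2 group. In batch 1 the differences in mean log2 CPM were 0.70 for Atp13a5 and 0.91 for Notch3, and in batch 2 they were 0.14 and 0.03. For Rgs5 they were 0.96 and 1.23, and for Abcc9 0.80 and 0.85.

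The remaining members in whole libraries were Kcnj8 (log2 change 0.97, SE 0.48), Vtn (0.64, SE 0.30), Pdgfrb (0.31, SE 0.25), Anpep (0.19, SE 0.46), Cald1 (0.02, SE 0.17) and Pdgfb (-0.23, SE 0.24). With mural and endothelial nuclei left out of the sums, an alternative chosen after the data were seen, the change was 0.47 (SE 0.37) for Abcc9, 0.16 (SE 0.23) for Atp13a5 and 0.35 (SE 0.23) for Notch3. Rgs5 stood at 1.07 (SE 0.32, edgeR adjusted p = 0.999, 0.00819 unadjusted) on the UMIs of the remaining nuclei. Apart from fibroblasts, the named classes among them had Rgs5 means at or below 5.10 CPM. Its groups lay apart, with ANGPT2 mice higher, in microglia (16 UMIs), inhibitory neurons (32 UMIs) and fibroblasts (11 UMIs, 0 in control mice). In the other named classes with Rgs5 UMIs the groups overlapped. ANGPT2 mice also lay above controls for Vtn in microglia (44 UMIs) and for Notch3 in striatal neurons, where 2 control mice counted. The share of all genes with groups apart was not computed in microglia, inhibitory neurons, fibroblasts or striatal neurons, so these separations have no background to be read against. The whole-library differences of the mural genes stand beside a larger mean share of mural nuclei in ANGPT2 mice. Endothelial nuclei, which held 56.7% of all Rgs5 UMIs, made up 0.909%, 1.65%, 0.787% and 1.17% of kept nuclei in ANGPT2 mice. In control mice they made up 0.607%, 0.946% and 0.574%, and the groups overlapped. The part of either share in the whole-library differences was not tested further.

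**Figure D4:**
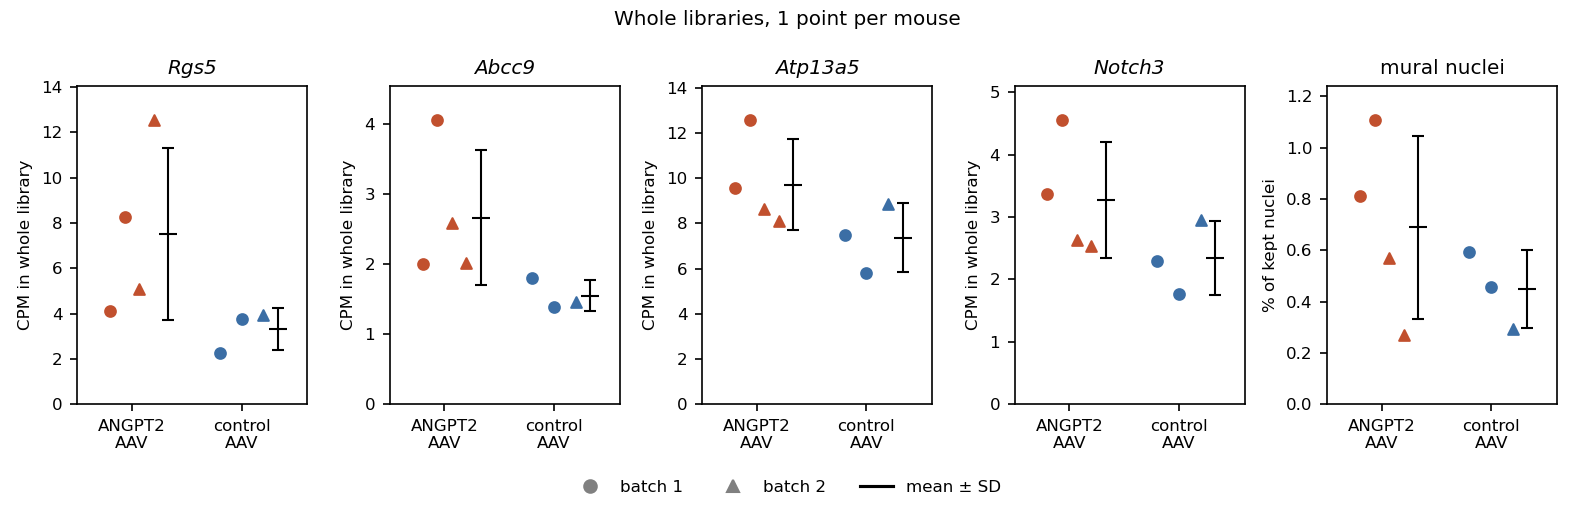
CPM of Rgs5, Abcc9, Atp13a5 and Notch3 in whole libraries and the mural share of kept nuclei (percent), 1 point per mouse, ANGPT2 AAV left of control AAV, with circles for batch 1, triangles for batch 2 and mean ± SD. Rgs5 and Abcc9 are higher in all 4 ANGPT2 mice than in the 3 control mice, and the mural shares overlap.

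**Figure D5:**
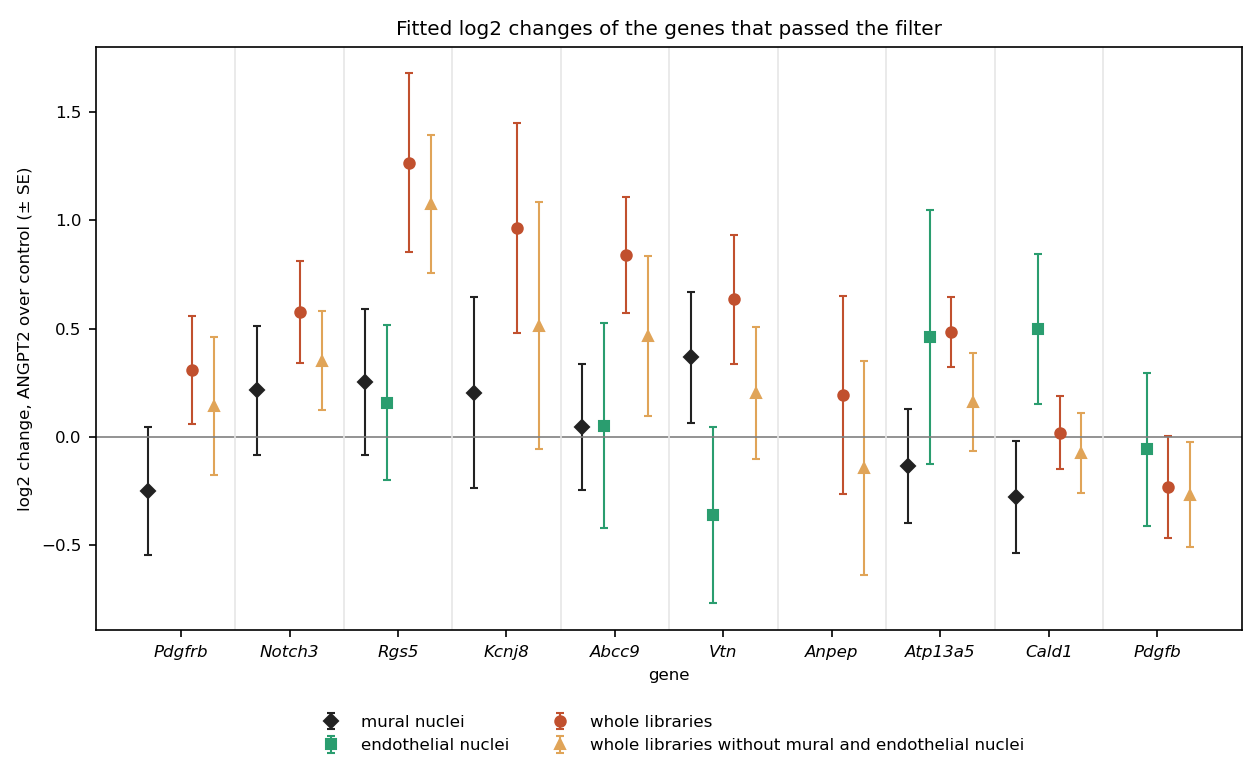
Fitted log2 change of ANGPT2 over control with its SE for each gene that passed the filter, in mural nuclei, endothelial nuclei, whole libraries and whole libraries without mural and endothelial nuclei. Mural changes lie between -0.28 and 0.37, and whole-library changes reach 1.27 for Rgs5.

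Genes of the same pathways gave no call in mural or endothelial nuclei. Of 22 PDGF and recruitment partners, 2 could be tested in mural nuclei, Ednra, an endothelin receptor gene (log2 change 0.30, SE 0.32), and Cdh2, which encodes N-cadherin (-0.07, SE 0.34). In endothelial nuclei 11 of the 22 could be tested, with 6 above and 5 below 0 and 0 called. The highest were Nrp1 (0.33, SE 0.38), a co-receptor gene, and Cxcl12 (0.30, SE 0.44), a chemokine gene. The lowest were Acvrl1 (-0.36, SE 0.34) and Eng (-0.25, SE 0.35), both receptor genes of the TGF-beta family.

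Of 16 Notch pathway genes, the coactivator genes Maml2 (0.04, SE 0.30) and Maml3 (-0.28, SE 0.31) were tested in mural nuclei. In endothelial nuclei 5 were tested and 0 called, from Maml3 (-0.55, SE 0.38) and the receptor gene Notch4 (-0.55, SE 0.42) to Jag2 (0.06, SE 0.42) and Notch1 (0.07, SE 0.36). Among 12 smooth muscle genes, Mylk, the myosin light chain kinase gene, was at 0.00 (SE 0.33) in mural nuclei. In endothelial nuclei Smtn, which encodes smoothelin, was at -1.27 (SE 0.46, edgeR adjusted p = 1.00, 0.0136 unadjusted) and Myl9 at 0.14 (SE 0.61). Of the 6 vitronectin receptors and partners, the integrin gene Itgb1 was at -0.08 (SE 0.37) in mural nuclei, and in endothelial nuclei Itgav was at 0.43 (SE 0.48) and Itgb1 at 0.28 (SE 0.37). Of 8 relatives of the channel and pump genes, 0 could be tested in mural nuclei and Atp13a3 was at 0.32 (SE 0.43) in endothelial nuclei. Among 12 other pericyte genes 5 were tested in mural nuclei and 0 called, from Slc38a11 (-0.46, SE 0.31) and Slc6a20a (-0.03, SE 0.28) to Art3 (0.33, SE 0.33) and P2ry14 (0.35, SE 0.33). In whole libraries these lists gave no call. The median log2 change there was 0.20 for other pericyte genes, 0.09 for PDGF and recruitment partners and 0.03 for Notch pathway genes. It was -0.003 for smooth muscle genes, -0.02 for vitronectin receptors and partners and -0.002 for relatives of the channel and pump genes, against 0.53 for the members.

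Whether the effect of the vector differed between females and males could be asked only weakly, since there was 1 control female and the interaction of treatment and sex rests on that mouse. In that fit (edgeR) 0 of 8 members passed in mural nuclei, 0 of 6 in endothelial nuclei and 0 of 10 in whole libraries. Over all genes 0 of 1171, 1 of 3421 and 1 of 19987 passed, in the same order. The lowest adjusted p of a member, 0.536, was Vtn in endothelial nuclei, where the ANGPT2 effect was larger in females by 2.16 on the log2 scale (SE 0.72, 0.0108 unadjusted). Vtn stood there at 216, 541, 504 and 773 CPM in ANGPT2 mice, against 861, 349 and 794 CPM in control mice. The 50 endothelial barcodes with mural markers held 93.2% of these Vtn UMIs. They were 20.9% of the endothelial nuclei of the batch 2 ANGPT2 female, and their part in the Vtn values was not tested. In these values both ANGPT2 males lay below both control males, and both ANGPT2 females above the 1 control female. In whole libraries the same difference for Vtn was 1.48 (SE 0.43, adjusted p = 1.00 in edgeR, 0.0101 unadjusted).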

How the data were processed

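Nuclear RNA from 7 mice was measured as single-nucleus libraries. Each deposited matrix is a table of unnormalized UMI counts, made by the authors with Cell Ranger 6.1.2 on mm10 (GRCm38), per the submitters' processing notes. Barcodes with at least 300 genes and under 5% mitochondrial UMIs were kept (58169), and doublets were called per library from simulated doublets among 50 neighbours (score: share of simulated neighbours). Nuclei were clustered on 2500 variable genes without the 10 members (40 components, 15 neighbours, Leiden resolution 1, leidenalg 0.10.2), and named by marker lists for 17 cell types. Naming required 3 or more detected markers, a score of 0.4 or more and doublets in no more than 0.5 of the cluster, plus an own marker among the 10 leading genes for clusters whose UMIs were under 0.333 of the library median.

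Counts were summed per library and class, leaving out a library with fewer than 10 nuclei of that class. CPM is the count per 1000000 UMIs of that sum. The ANGPT2 and control sums were tested in edgeR 4.0.16 under R 4.3.3 (quasi-likelihood, TMM factors, filterByExpr with minimum count 10 and total 15, treatment as the only term), tested on simulated data, with DESeq2 1.42.0 as an alternative. Adjusted p-values (Benjamini-Hochberg) are over all genes tested in a class. A log2 change is ANGPT2 over control. Its SE was derived from the test, as the size of the change divided by the square root of the quasi-likelihood F. Shares of nuclei were compared by exact permutation over the mice. Thinning drew 800 UMIs per nucleus and left out shallower nuclei. Mice with the same batch number were taken as a block, since the labels call the number a batch. Deviations from group means, over pairs of 1 ANGPT2 and 1 control mouse, correlated at 0.06 to 0.47 within a batch and -0.40 to 0.10 across batches (6 pairs each). The main tests left batch out. The block with batch was an alternative, as were sex as a term, no filter, leaving out each mouse, resolution 2, members among the variable genes and doublets kept.

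The members and gene lists were chosen with earlier results of these data known. The rule names all 10 members in every comparison. The text does so in mural and endothelial nuclei and whole libraries, and in other classes names members chosen after their values were seen. It also names, per list, genes past the threshold or the 2 highest and 2 lowest changes in mural and endothelial nuclei, and the 5 genes most like Pdgfrb and Pdgfb. Binomial intervals are exact (Clopper-Pearson) at 95%, a count of 0 allows up to 3 counts, and both cover counting error only.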

Additional observations from a re-analysis of the deposited data

Results flagged for a closer look

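The 49 sets of 4 ANGPT2 libraries held gene values and the measures of mural nuclei. In 5 of them the highest or lowest value lay far from the other 3 (a gap above 0.829 of the range). Chance gives about 1 in 20 sets for normally distributed values, which sparse counts are not. A set with UMIs in only 1 library is always flagged, as were Pdgfb in mural nuclei and Pdgfb and Abcc9 in fibroblasts. Pdgfb in mural nuclei was at 17.3 CPM in the batch 1 ANGPT2 female, from 3 UMIs, and at 0 in the other ANGPT2 mice. The other 4 were in fibroblasts. Pdgfb was at 9.13 CPM in the batch 1 ANGPT2 female and Abcc9 at 16.6 CPM in the batch 2 ANGPT2 female, from 1 UMI each, and both were at 0 in the other ANGPT2 mice. In the batch 2 ANGPT2 male, which had 22 fibroblast nuclei, Rgs5 stood at 154 CPM and Atp13a5 at 370 CPM, from 5 and 12 UMIs. The other ANGPT2 mice had 18.3 to 33.2 CPM of Rgs5 and 99.5 to 119 CPM of Atp13a5 there, and control mice had 0 UMIs of Rgs5.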

How the results depend on the processing

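Of 337 recomputed log2 changes of members, 311 kept their sign and 26 turned, with no member past the threshold in any (lowest adjusted p 0.653), and 14 of 24 results never turned. Endothelial genes past the threshold numbered 4 without the filter on low counts (0 with it), and whole-library genes 2 with DESeq2 (0 with edgeR). With the replicate block endothelial Abcc9 was at -0.28. With block and sex together it was at -0.33, Rgs5 at -0.044 and Atp13a5 at -0.063, and the block changed no call. With doublets kept these 3 (in that order) were at -0.33, -0.24 and -0.099, and mural per endothelial nuclei differed by 0.0174. Endothelial Pdgfb was at 0.025 without the filter. Without mural and endothelial nuclei, whole-library Cald1 was at -0.072 and Anpep at -0.14. The cause of these changes was not tested.

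Leaving out each mouse gave, in mural nuclei, -0.0052 to 0.52 for Rgs5, -0.020 to 0.31 for Kcnj8 -0.13 to 0.26 for Abcc9, 0.063 to 0.64 for Vtn, 0.056 to 0.33 for Notch3, -0.26 to -0.031 for Atp13a5, -0.36 to -0.13 for Cald1 and -0.44 to -0.16 for Pdgfrb. In endothelial nuclei it gave -0.25 to 0.36 for Rgs5, -0.55 to 0.29 for Abcc9, -0.26 to 0.092 for Pdgfb and -0.49 to 0.75 for Atp13a5. In whole libraries it gave -0.072 to 0.14 for Cald1, -0.18 to 0.66 for Anpep, -0.38 to 0.10 for Pdgfb and 0.84 to 1.48 for Rgs5. Mural nuclei per endothelial nucleus differed by -0.117 to 0.132 and the mural share by 0.10 to 0.38 percentage points. Mural sums of 14008 to 173341 UMIs per mouse limit what could be seen, since 1 UMI in the smallest sum is worth more than the mean of Anpep.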
